A study of Mus musculus with 49 samples.

Results

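Macrophage marker genes are described here in mouse skin fibroblast cultures and pluripotent stem cell lines. The 10 genes are Marco, Mrc1, Clec10a, Fcgr3, C1qa, Csf1r, Mpeg1, Adgre1, Cd68 and Coro1a, of 13852 genes that the arrays name. They were chosen on measured values of these same arrays: they are macrophage genes picked with earlier differences in intensity between the culture groups known, so their levels and differences are a description and carry no test. Among probes that carry 1 symbol, each of the 10 genes is measured by exactly 1 probe, found by its current mouse gene symbol.

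Gene expression was measured on 49 single-colour arrays in 23 groups, of which 20 held 2 arrays and 3 held 3. The fibroblasts (MEF) came from the skin of limbs and tails of female OGXICR mice of age D13.5, with the epidermis removed after collagenase digestion and the cells passed through a strainer. Reprogramming factors were brought in with a doxycycline-inducible lentiviral system, and the study looked for factors that can stand in for OCT4 or SOX2. The groups are MEF2 EV, the reference for the SOX2 substitutes, and fibroblasts with OKM (read as OCT4, KLF4 and c-MYC) plus EV, SOX1, SOX2, SOX3 or GMNN. MEF1 EV is the reference for the OCT4 substitutes, which are fibroblasts with SKM (read as SOX2, KLF4 and c-MYC) plus EV, OCT4, GATA6, SOX7, PAX1, GATA4, CEBPa, HNF4a, GRB2 or MIXL1. The labels do not spell out EV, which is read as an empty vector. Uninfected MEF, the iPSC lines G6Gm, G3 and Dlx3RNAi (treated with Dlx3 RNAi), all of strain OGXICR, and the ESC lines R1 (strain 129) and B6 (strain C57BL\6) complete the series. The pluripotent lines were kept on a layer of mitomycin C-treated MEFs, per the labels' protocols. No time after infection is given, and each iPSC name stands for 1 line.

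The arrays fall into 5 sets by which probes lack a value. The sets are treated here as normalized separately, which is an inference, and values are set against each other only within a set. MEF2 EV and OKM+EV form the first such set used here. OKM with SOX1, SOX2, SOX3 or GMNN forms the next, MEF1 EV with every SKM group another, and uninfected MEF with the iPSC lines and R1 another. ESC B6 stands alone. Values for the marker genes exist for all 10 in the set of MEF2 EV, for 9 in the set of OKM+SOX2 (not Adgre1), for 4 in the SKM set (Fcgr3, C1qa, Csf1r and Coro1a), for 9 in the set of uninfected MEF (not Marco), and for 7 in ESC B6 (not Marco, Clec10a or Mpeg1). Whether replicate arrays come from separate cultures is not given, so p-values for other genes measure the spread between arrays. That spread is pooled over every set with a value for the gene, not taken from the compared groups alone. In whole cultures, fewer macrophages and less RNA per macrophage cannot be told apart.

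Macrophages are phagocytes that take up dying cells, microbes and debris, and embryonic skin holds resident macrophages derived from yolk sac and fetal liver progenitors. Their survival depends on the CSF1 receptor, encoded by Csf1r, and its ligands CSF1 and IL-34. The ETS transcription factor PU.1, with C/EBP and AP-1 factors, is known to act at many macrophage genes.

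Promoter sequences are shown first for 4 genes that were high together in MEF2 EV and whose windows hold the PU.1 core GAGGAA on either strand. RefSeq windows on GRCm38.p6, from 250 bases before to 50 bases after the start of transcription, were at hand for 6 of the 10 genes (Marco, Mrc1, Fcgr3, Mpeg1, Cd68 and Coro1a). The 250 bases upstream are printed 5′ to 3′ on the gene's own strand, with the core or its reverse complement in capitals. Marco lies on the minus strand at chr1:120505025-120505274, Fcgr3 on the minus strand at chr1:171059404-171059653, Mrc1 on the plus strand at chr2:14229164-14229413 and Cd68 on the minus strand at chr11:69666171-69666420.
Marco: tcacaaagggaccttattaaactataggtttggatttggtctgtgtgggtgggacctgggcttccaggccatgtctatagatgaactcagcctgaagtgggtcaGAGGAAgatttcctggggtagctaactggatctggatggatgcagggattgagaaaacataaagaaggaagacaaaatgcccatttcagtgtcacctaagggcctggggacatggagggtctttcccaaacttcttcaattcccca
Fcgr3: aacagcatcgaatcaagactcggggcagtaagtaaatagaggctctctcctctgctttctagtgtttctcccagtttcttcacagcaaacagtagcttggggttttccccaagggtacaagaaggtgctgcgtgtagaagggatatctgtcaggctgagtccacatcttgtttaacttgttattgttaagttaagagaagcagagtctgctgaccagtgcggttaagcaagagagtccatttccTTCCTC
Mrc1: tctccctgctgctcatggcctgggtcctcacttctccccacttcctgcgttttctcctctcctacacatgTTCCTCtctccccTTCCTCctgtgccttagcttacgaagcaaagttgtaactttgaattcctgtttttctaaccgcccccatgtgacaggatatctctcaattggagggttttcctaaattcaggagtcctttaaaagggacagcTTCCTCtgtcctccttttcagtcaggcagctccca
Cd68: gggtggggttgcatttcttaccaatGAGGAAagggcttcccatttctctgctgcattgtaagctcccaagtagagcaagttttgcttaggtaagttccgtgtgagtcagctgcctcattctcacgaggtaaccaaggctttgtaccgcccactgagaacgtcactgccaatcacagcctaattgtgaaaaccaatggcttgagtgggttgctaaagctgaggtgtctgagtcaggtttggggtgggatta
Mrc1 held 3 copies upstream of its start, beginning at bases -180, -167 and -35. Marco held 1 at -146, Fcgr3 1 at -6, and Cd68 1 at -225 with another after the start, beginning at base 30. In all, 4 of the 6 windows held the core, against 28.3 percent of the 27025 mouse gene windows of the same length. The C/EBP motif TTGCNNAA was found on either strand in 2 of the 6, Fcgr3 (at -28) and Cd68 (at -43), and in 10.8 percent of all windows. The AP-1 motif TGANTCA was found in 1, Cd68 (at -149 and -24), and in 7.93 percent of all. No TATAAA box was found in the 6 windows, against 14.2 percent of all. The motifs do not overlap in their letters, and a match is a description of letters, not a site of binding.

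In the set of MEF2 EV and OKM+EV, all 10 marker genes were bright in MEF2 EV and far dimmer in OKM+EV. Among its array's probes, each of the 10 genes lay between percentiles 82.8 and 99.9 in MEF2 EV. The other fibroblast references, in sets of their own, did not share these high ranks. The measured genes lay between percentiles 14.1 and 33.8 in MEF1 EV (4 genes) and between 0.05 and 69.6 in uninfected MEF (9 genes). The median difference of the 10 genes, OKM+EV minus MEF2 EV on the scale of log2(intensity + 32), was -5.61, against -0.01 over all 11948 genes tested. The third OKM+EV array stands apart from the other two over all genes, with correlations of 0.843 and 0.884 with them against 0.986 between them. Without it the median was -4.90.

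Marco, a scavenger receptor that binds bacteria and particles, had intensities of 36187 and 36651 in MEF2 EV and 420.4, 411 and 78.0 in OKM+EV. Every MEF2 EV array lay above every OKM+EV array, and the third OKM+EV array was the lowest. The log2 difference of -7.02 (SE 0.48) was the largest among the 10 genes, and also without the third array. Mrc1, the mannose receptor CD206, read 6854 and 12557 in MEF2 EV and 655, 592 and 114 in OKM+EV, a difference of -4.55 (SE 0.42) without overlap. Clec10a, a lectin that binds galactose-type sugars, had 2505 and 2205 against 391, 409 and 40.4. Its difference of -3.32 (SE 0.54) was the smallest among the 10 genes, and again no array overlapped. Fcgr3, a low-affinity Fc receptor for IgG, gave 26171 and 22127 in MEF2 EV and 754, 859 and 115 in OKM+EV. The groups lay apart by -5.68 (SE 0.37), and by -4.85 without the third OKM+EV array.

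C1qa, a chain of complement C1q, read 34229 and 51699.8 in MEF2 EV and 1373, 1288 and 89.6 in OKM+EV, a log2 difference of -6.11 (SE 0.50). Its other OKM+EV arrays stayed well above the third, and all of them lay far below MEF2 EV. Csf1r, the receptor for CSF1 and IL-34, had 12385 and 9843 in MEF2 EV against 179, 149 and 184 in OKM+EV. Here the third OKM+EV array was level with the others, and the difference was -5.78 (SE 0.14), the smallest error among the 10. Mpeg1, a pore-forming protein of the phagosome, gave 3899 and 4972 against 12.4, 50.4 and 205. Here the third OKM+EV array was the highest of the group, unlike most other marker genes, and the difference was -5.54 (SE 0.42). Adgre1 encodes F4/80, the classical surface marker of mouse macrophages. It read 8008 and 7000.0 in MEF2 EV and 93.0, 116 and 56.4 in OKM+EV, a difference of -6.00 (SE 0.22) without overlap.

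Cd68, a lysosomal membrane glycoprotein, had 18603 and 14392 in MEF2 EV and 2372, 2368 and 305 in OKM+EV, with a difference of -3.72 (SE 0.66). Its mean intensity in OKM+EV was 1681 ± 1192 (SD, n = 3), and again the third array was far below the rest. Coro1a, an actin-binding protein of white blood cells, read 8056 and 7132 against 319, 392 and 186, a difference of -4.58 (SE 0.20). In the third OKM+EV array 8 of the 10 genes had their lowest value of that group, and the other 2, Csf1r and Mpeg1, had their highest. Without that array the differences ran from -6.35 for Marco and -6.20 for Mpeg1 to -2.46 for Clec10a.

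**Figure D1:**
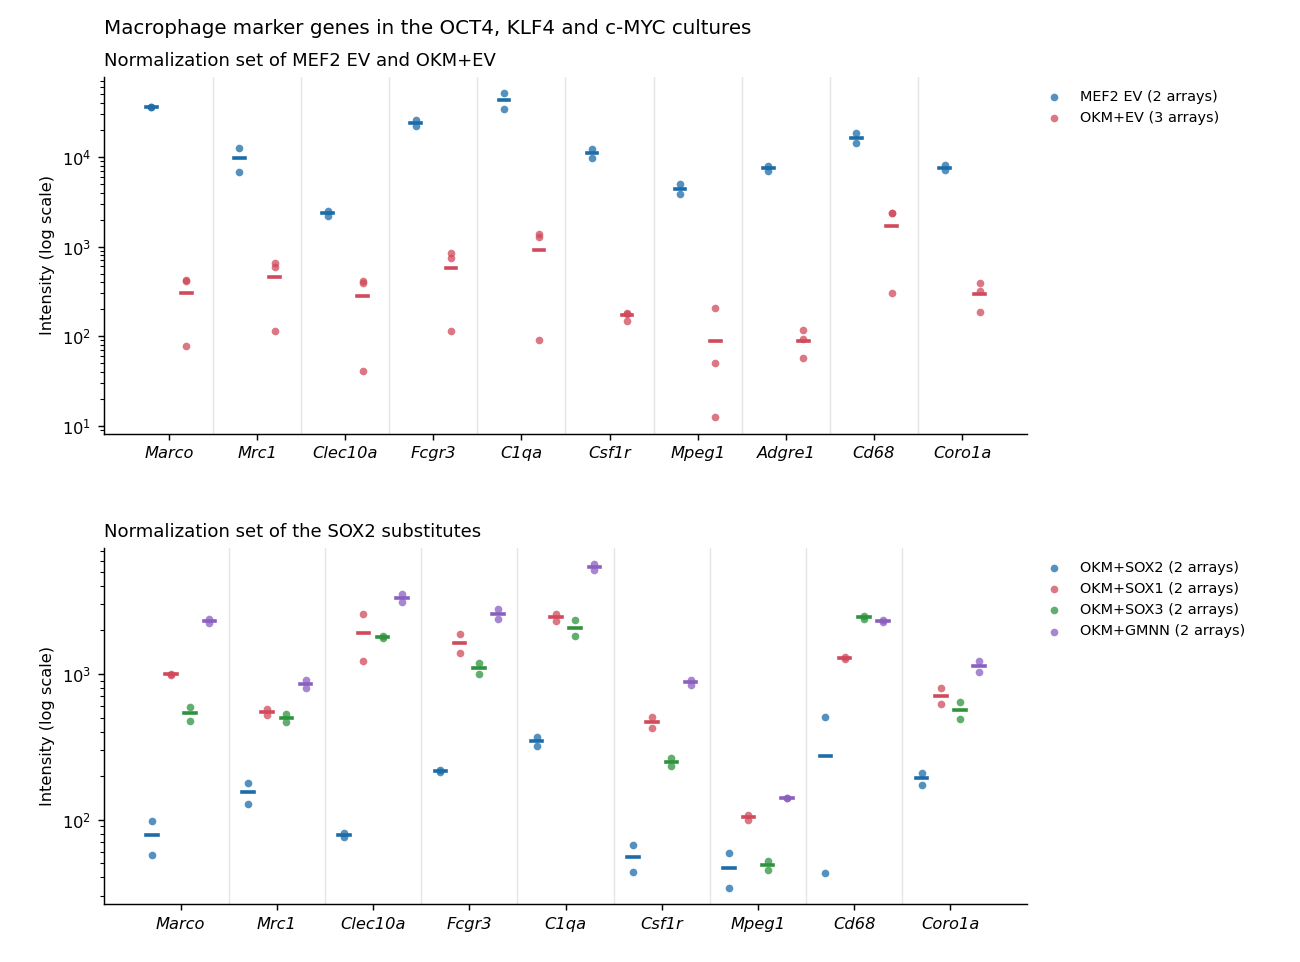
Intensity (log scale) of each macrophage marker gene on single arrays (points) with group means (bars), in the set of MEF2 EV and OKM+EV above and in the set of the SOX2 substitutes below. All 10 genes lie higher on both MEF2 EV arrays than on any OKM+EV array. In the lower panel OKM+GMNN has the highest mean for 8 of 9 genes and OKM+SOX2 the lowest for all 9. Shares over all genes were not computed for these orders.

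All 10 marker genes passed an adjusted p of 0.05 in limma for OKM+EV minus MEF2 EV, where 40.8 percent of all genes passed. The genes were chosen with this difference known, so nothing is read from the count. Of a list of 50 further macrophage and monocyte genes, compiled from textbook knowledge, 34 have a named probe and 27 were measured in this set. In OKM+EV, 22 of the 27 fell, 1 rose and 4 did not pass, against 21 percent of all genes lower and 19.8 percent higher. Their median difference was -3.26, and without the third OKM+EV array 21 fell (Siglec1 no longer passed) and 1 rose. Slc11a1, a metal transporter of the phagosome, fell by 5.68 (SE 0.21, limma adjusted p = 5.6e-14), from a mean of 7178 in MEF2 EV to 111 in OKM+EV. Clec4d and Clec4n, lectins that recognise fungi and mycobacteria, differed by -5.33 and -4.99 and passed as lower. C1qb, the partner chain of C1qa, fell by 4.98. The gene that rose was Ccr2, the receptor for the monocyte attractant CCL2, at 0.55. Clec4e, Tlr4, Timd4 and Vsig4 did not pass, with differences of -0.18, -0.06, 0.01 and 0.23.

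Genes of white blood cells in general had a similar direction. Of 15 measured pan-leukocyte genes, 12 fell in OKM+EV, 1 rose and 2 did not pass, with a median of -2.36. The gene that rose was Lsp1 (0.53), and Dock2 (-0.59) and Lcp1 (0.32) did not pass. Without the third OKM+EV array Lcp1 passed as higher, at 0.79. Rac2, a GTPase of the phagocyte oxidase, fell by 4.88, and Ptpn6, a phosphatase of blood cells, fell by 4.31. Cd53, a tetraspanin, fell by 4.06 and Laptm5, a lysosomal protein of blood cells, fell by 3.82. Lysosome genes, which most cells express, fell for 10 of 14 measured, with Gpnmb at -4.12, the beta-glucuronidase Gusb at -2.55, the acid lipase Lipa at -2.26 and the hexosaminidase Hexa at -1.77. None of the 14 rose, and Ctsh, Ctsl, Lamp2 and Lgmn did not pass. Without the third OKM+EV array Ctsl was also lower, at -0.70.

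Ligands and transcription factors around the CSF1 receptor were mixed, with 5 of 12 measured genes lower and 2 higher. The lower ones were the transcription factors Maf (-3.07), Irf8 (-2.60), Irf5 (-2.25), Tfec (-2.20) and Nr1h3 (-1.85). Il34, a ligand of the receptor, rose by 1.37, from a mean intensity of 174 to 514. Id3, an inhibitor of basic helix-loop-helix factors, rose by 0.94. Without the third OKM+EV array Bcl6 (-0.57) was also lower, and Csf1 (0.99) and Cebpb (0.57) were also higher. Among 6 measured monocyte attractants, Ccl4 and Ccl3 passed as lower at -3.55 and -2.32. Ccl7 and Ccl2 rose by 1.68 and 1.09, and Cx3cl1 rose by 0.68. Which cells made these transcripts was not tested. Without the third array Cx3cl1 no longer passed, and Cxcl12 was lower, at -0.77.

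Markers of other cells did not all move alike. Keratinocyte genes rose for 10 of 12 (Krt17 by 6.53, Lgals7 by 5.17, Krt14 by 5.01 and Sfn by 3.83), and none fell. Fibroblast genes were high in both groups. Their summed intensity over 13 genes was 107738 to 121970 in MEF2 EV and 115818 to 153412 in OKM+EV. Of the 13, 6 rose while 2, Col5a1 and Twist1, fell. Without the third OKM+EV array 4 rose and 3 fell, with Postn (-0.46) also lower. Of 5 T and B cell genes 1 fell (Cd3d, at -0.46), of 5 neutrophil genes 2 fell (Camp at -2.04 and S100a8 at -0.64) and 1 rose (Ltf, by 1.15), and of 4 osteoclast genes 1 fell (Ctsk, at -1.12). Of 3 mast cell genes 1 rose (Cma1, by 0.64), and of 3 dendritic and Langerhans cell genes 1 rose (H2-Aa, by 0.79) and 1 fell (Zbtb46, at -0.79). Among 8 endothelial genes Tek rose by 1.33, Esam by 0.82 and Kdr by 0.70, and Ramp2 fell by 2.64. Of 3 measured erythroid and megakaryocyte genes, Pf4, a chemokine known from platelets that tissue macrophages also make, fell by 4.89, while the platelet gene Ppbp rose by 1.10. Pluripotency genes rose for 2 of 6 (Fgf4 by 2.64 and Tdgf1 by 2.47) and fell for 1 (Klf2, at -1.46). Without the third OKM+EV array the pluripotency gene Pou5f1 was also lower (-0.48). In that setting the endothelial gene Cdh5 (0.64) and the Langerhans cell gene Cd207 (0.45) were also higher. The part these other cells play in the marker genes' levels was not tested. The summed intensity of the 27 other macrophage genes was 113720 and 116216 on the MEF2 EV arrays and 4471 to 12138 over the OKM+EV arrays.

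Within the set of SOX2 substitutes, macrophage marker genes were lowest with SOX2 and highest with GMNN. OKM+GMNN had the highest mean for 8 of the 9 measured genes, and OKM+SOX2 had the lowest for all 9. The same shares over all genes were not computed, so nothing is read from these counts. With SOX2 some marker genes were near the floor, at percentiles 1.18 and 10.1 (Marco), 5.34 and 4.5 (Clec10a) and 2.64 and 0.3 (Csf1r). C1qa lay higher there, at percentiles 47.2 and 43.5. GMNN encodes geminin, an inhibitor of DNA replication licensing, and SOX1 and SOX3 are the closest relatives of SOX2. The comparisons of SOX1, SOX3 and GMNN all use the same 2 arrays of OKM+SOX2. Those correlate at 0.905 with each other over all genes, against 0.976 to 0.997 for the groups other than OKM+EV. Median differences from OKM+SOX2 were 2.71 for SOX1, 2.18 for SOX3 and 3.41 for GMNN, and leaving out any 1 array kept them within 2.53 to 2.71, 2.07 to 2.30 and 3.33 to 3.52.

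Marco read 57.3 and 98.4 with SOX2, 980.1 and 1006 with SOX1, 594 and 478 with SOX3, and 2366 and 2250.4 with GMNN. The 4 groups did not overlap, and GMNN minus SOX2 was 4.44 (SE 0.53). Mrc1 had 178 and 129 with SOX2, 575 and 525 with SOX1, 534 and 466 with SOX3, and 906 and 802 with GMNN. SOX1 and SOX3 overlapped for Mrc1, while SOX2 lay below and GMNN above every other array (difference 2.27, SE 0.46). Clec10a gave 80.2 and 76.1 with SOX2, 2571 and 1231 with SOX1, 1761 and 1822 with SOX3, and 3122 and 3525 with GMNN. Its difference for GMNN, 4.93 (SE 0.59), was the largest among the 9 genes. SOX3 gave 4.05 (SE 0.59), and the 2 SOX1 arrays lay on either side of SOX3. Fcgr3 read 219 and 212 with SOX2, 1396 and 1880.1 with SOX1, 1188 and 1006 with SOX3, and 2387 and 2812 with GMNN. All 4 groups were apart, in the same order as for Marco, with 3.41 (SE 0.41) for GMNN minus SOX2.

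C1qa had 371 and 322 with SOX2, 2591 and 2303 with SOX1, 2340.3 and 1823 with SOX3, and 5699 and 5192 with GMNN, whose difference from SOX2 was 3.86 (SE 0.55). The SOX1 and SOX3 arrays overlapped, and GMNN stood above all others. Csf1r read 67.3 and 43.6 with SOX2, 423 and 506 with SOX1, 266 and 231 with SOX3, and 838 and 914 with GMNN. No groups overlapped, and GMNN minus SOX2 came to 3.39 (SE 0.15). That error is again the smallest, but a gene's spread is pooled over the sets, so this is no separate result. Mpeg1 was dim throughout, with 58.5 and 33.8 with SOX2, 108 and 99.6 with SOX1, 45.2 and 52.2 with SOX3, and 140.5 and 141 with GMNN. SOX3 overlapped SOX2 for this gene, and the GMNN difference was 1.16 (SE 0.46).

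Cd68 read 43.0 and 504 with SOX2, 1317 and 1268 with SOX1, 2397 and 2489 with SOX3, and 2269 and 2364 with GMNN. It is the only 1 of the 9 genes with its highest level in SOX3, just above GMNN, and its SOX2 arrays disagreed most. The differences from SOX2 were 3.62 (SE 0.73) for SOX3 and 3.55 (SE 0.73) for GMNN. Coro1a had 209 and 174 with SOX2, 618 and 802 with SOX1, 644 and 491 with SOX3, and 1036 and 1236 with GMNN. SOX1 and SOX3 overlapped, and GMNN minus SOX2 was 2.38 (SE 0.22). SOX1 lay above SOX3 without overlap for Marco, Fcgr3, Csf1r and Mpeg1, SOX3 above SOX1 for Cd68, and the other 4 overlapped. The share of all genes without overlap was not computed, so nothing is read from this split.

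Of the 9 measured marker genes, 8 passed for SOX1 (5.72 percent of all genes passed), 7 for SOX3 (6.32 percent) and 8 for GMNN (7.22 percent), all of them higher than with SOX2. Mpeg1 did not pass in any of the comparisons, nor Mrc1 for SOX3. Of 23 other macrophage genes measured, 5 rose for SOX1 (3.66 percent of all genes rose), 5 for SOX3 (3.43 percent) and 8 for GMNN (4.37 percent). None of the 23 passed as lower in limma (1 at an unadjusted p of 0.05, Timd4 for SOX1). The count for SOX1 was 2 without either SOX1 array or without the first SOX2 array, and 3 when this set was fitted alone. For SOX3 it was 1 without the first SOX3 array and 2 without the first SOX2 array, and for GMNN it was 5 without the second GMNN array. Nckap1l, a regulator of actin in blood cells, rose by 2.82 for GMNN, 2.20 for SOX1 and 1.90 for SOX3. Fcer1g, the signalling chain of Fc receptors, rose by 2.72, 1.70 and 2.12 in the same order, and Clec4d by 2.52, 1.81 and 1.84. Slc11a1 rose by 2.01, 1.05 and 0.87, and Ms4a6c by 1.28 for GMNN and 1.63 for SOX1. C1qc, the third chain of C1q, rose by 2.48 for GMNN and 2.47 for SOX3. The median difference of the 23 genes was 0.49 for GMNN, 0.21 for SOX1 and 0.37 for SOX3. The larger medians of the marker genes are no fair comparison, because those genes were picked with differences between the groups known.

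For GMNN 4.37 percent of all genes rose and 2.85 percent fell. Of 13 pan-leukocyte genes, 5 rose for GMNN (Laptm5 by 2.70, Cd53 by 2.42, Rac2 by 2.03, Cd52 by 1.58 and Ptpn6 by 1.39). Laptm5, Cd53 and Rac2 also rose for SOX1 and SOX3, with Ptpn6 for SOX1 and Cd52 for SOX3, and none passed as lower in limma for the 3 factors. Among 6 attractants, GMNN had Ccl3 higher by 2.25, Ccl4 by 2.02 and Ccl2 by 0.84, and Cx3cl1 at -0.87. Gpnmb rose by 2.18 and Gusb by 0.66, of 14 lysosome genes, and Pf4 rose by 3.70. Runx1, a transcription factor of blood cells, rose by 1.51 and was the only gene of 11 growth and fate factors to pass for GMNN. Keratinocyte genes rose here too, 6 of 12 for GMNN (Lgals7 by 3.52, Krt14 by 1.64, Krt17 by 1.62 and Krt1 by 1.38). None of 4 neutrophil, 4 T and B cell, 2 mast cell, 3 dendritic and Langerhans cell, 4 osteoclast or 6 endothelial genes passed for GMNN in limma. Of these 23 genes 4 (Ltf, Cd207, Esam and Tek) had an unadjusted p under 0.05. With 7.22 percent of all genes passing, nothing is read from this absence. Of 12 fibroblast genes 1 rose (Lum, by 2.77) and 1 fell (Pdgfrb, at -0.47), and of 6 pluripotency genes 2 fell (Esrrb at -1.15 and Zfp42 at -0.87). The part of these in the marker genes' differences was not tested. Summed over the 23 other macrophage genes, intensity was 5055 to 5248 with SOX2, 8007 to 8227 with SOX1, 8889 to 10356 with SOX3 and 12666 to 12827 with GMNN.

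**Figure D2:**
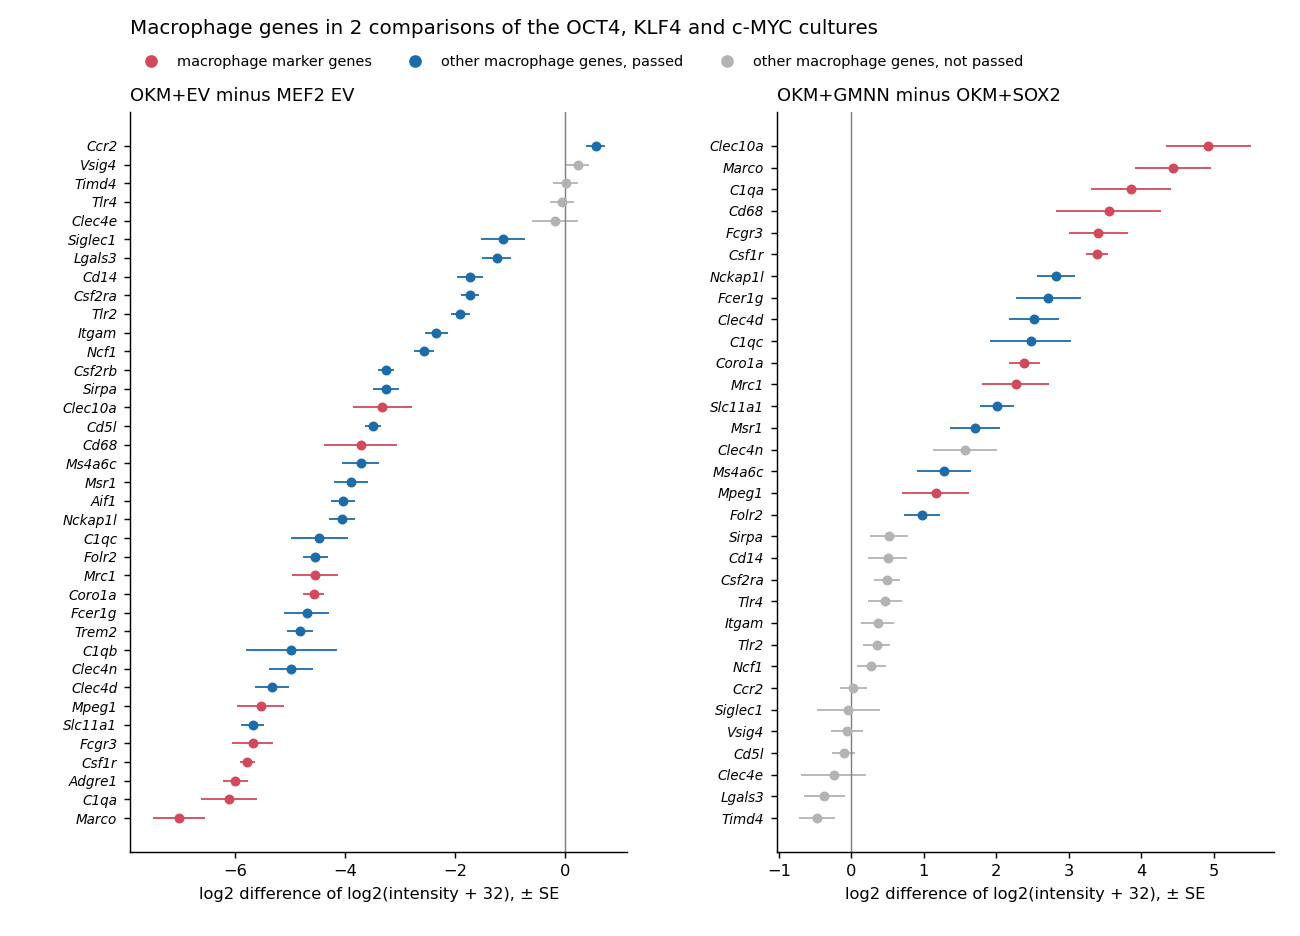
Log2 difference (points) with its standard error (bars) of the macrophage marker genes and of other macrophage genes, by limma on log2(intensity + 32), for OKM+EV minus MEF2 EV on the left and OKM+GMNN minus OKM+SOX2 on the right. On the left 22 of 27 other macrophage genes passed as lower beside the 10 marker genes, and on the right 8 of 23 passed as higher, with Clec10a (4.93) and Marco (4.44) at the top.

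By a rule added after the values were seen, genes were ranked by how closely they followed the mean profile of the 9 marker genes over the 8 arrays of this set. Among 3899 genes that span at least 1 log2 unit, the closest were Selplg (Pearson r 0.996), the P-selectin ligand of white blood cells, Endou (0.989), Nckap1l (0.984), Ccl4 (0.976) and Klk7 (0.975). Clec4d, Hk3, Btk, Gpnmb and Pf4 followed, down to 0.966. Klk7 is a protease of the skin's outer layer, and Hk3 and Btk are a hexokinase and a kinase of blood cells. The points share their normalization and, in pairs, their culture group, so the values describe these arrays only.

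In the SKM set the 4 measured marker genes were dim, and they did not follow a common order. MEF1 EV, the empty-vector fibroblasts of this experiment, had all 4 between percentiles 14.1 and 33.8 of its probes. The sets are not comparable in level, and these ranks stand beside those of MEF2 EV only as each array's own order. No marker gene of 4 passed between SKM+EV and MEF1 EV, where 19.6 percent of all genes passed, and their median difference was -0.29. Of 16 other macrophage genes, none passed in that comparison by limma, and 2 (Csf2ra and Spi1) had an unadjusted p under 0.05. Their sum was 4010 to 5253 over all arrays of this set. The factor comparisons that follow all share the 2 arrays of SKM+EV.

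Fcgr3 had 97.0 and 99.8 in SKM+EV, 118 and 132 in MEF1 EV, 219 and 247 with GATA6, and 254, 271 and 227 with GATA4. The GATA4 and GATA6 arrays overlapped each other and lay above every other array of the set. The differences from SKM+EV were 1.02 (SE 0.41) for GATA6 and 1.11 (SE 0.37) for GATA4. All other groups lay between 73.4 and 152. C1qa read 110.0 and 149 in SKM+EV and 183 and 291 in MEF1 EV, the highest group. With GATA6 it read 78.3 and 78.0, the lowest, and all factor groups lay between 78.0 and 191. MEF1 EV overlapped GATA4 (168, 152 and 186) and, by its lower array, PAX1 (140.3 and 191).

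Csf1r gave the widest spread of the 4 genes in this set. It read 148 and 138 in SKM+EV, 150.0 and 155 in MEF1 EV, 516 and 511 with GATA6, 294, 351 and 324 with GATA4, and 74.4 and 56.4 with OCT4. GATA6 lay above GATA4, GATA4 above all other groups, and OCT4 below all others, without overlap. Differences from SKM+EV were 1.64 (SE 0.15), 1.02 (SE 0.14) and -0.85 (SE 0.15). The other factor groups ranged from 81.1 to 159.8. Coro1a had 104 and 158 in SKM+EV, 168 and 164 in MEF1 EV, and 392, 398 and 454 with GATA4. With GRB2 it had 402 and 347, with CEBPa 324 and 324, with HNF4a 305 and 319, with PAX1 298 and 216 and with SOX7 262 and 224. These 6 groups all lay above MEF1 EV and SKM+EV, with differences from SKM+EV of 1.48, 1.34, 1.15, 1.10, 0.84 and 0.77 (SE 0.20 to 0.22). OCT4, GATA6 and MIXL1 ranged from 112 to 179.

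**Figure D3:**
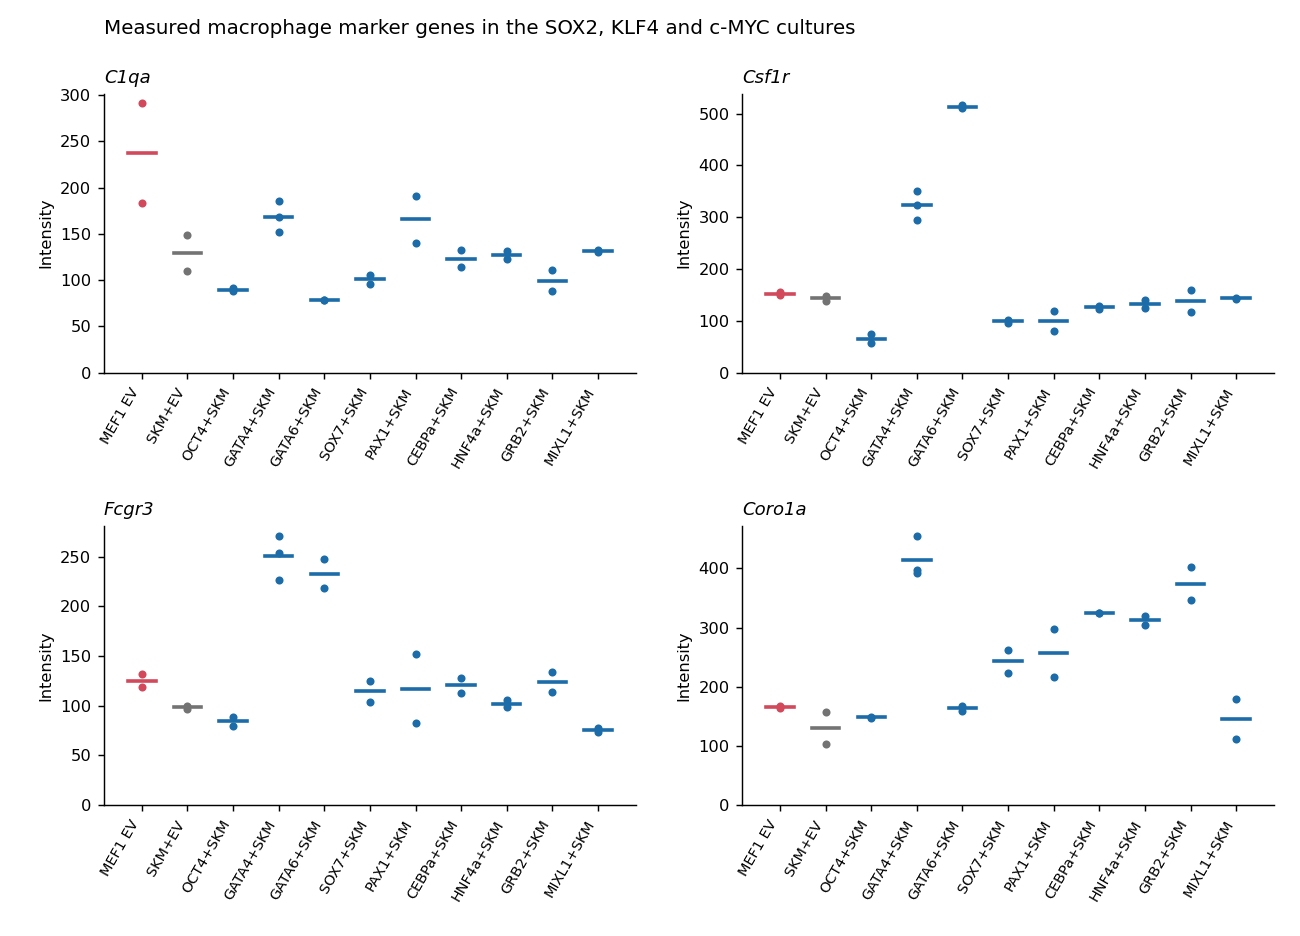
Intensity (linear axis from 0) of the 4 macrophage marker genes measured in the SKM set, by group, with single arrays as points and group means as bars; MEF1 EV is red, SKM+EV grey and the factor groups blue. Csf1r is highest with GATA6 (516 and 511), Fcgr3 and Coro1a with GATA4, and C1qa in MEF1 EV (183 and 291).

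Of these 4 genes 3 passed for GATA4 (53.9 percent of all genes passed). For GATA6 1 passed, Csf1r (22 percent of all). For OCT4 1 passed, Csf1r again (11 percent). Coro1a was the single gene that passed for SOX7 (12.1 percent), PAX1 (15.7 percent), CEBPa (34.6 percent), HNF4a (42.4 percent) and GRB2 (40.3 percent). None passed for MIXL1 (2.08 percent), at an adjusted or an unadjusted p of 0.05 in limma. Other macrophage genes went both ways, with 4 of 16 higher and 3 lower for GATA4, and 2 higher and 2 lower for GATA6. Of all genes, 29 percent were higher and 24.9 percent lower for GATA4, and 11.8 and 10.2 percent for GATA6. Nothing is therefore read from these counts. Spi1, which encodes PU.1, rose by 1.06 for GATA4 (adjusted p = 0.000233 in limma), from a mean of 165 to 368, and Csf2ra, a receptor chain for GM-CSF, by 0.88, with Folr2 at 0.83 and Ncf1 at 0.65. For GATA6 Csf2ra rose by 1.12 and Cd5l, a secreted macrophage protein, by 1.18. Clec4e (-1.90), Siglec1 (-1.36) and Fcer1g (-1.26) fell for GATA4, and Sirpa (-1.26) and Tlr2 (-1.03) fell for GATA6.

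The 10 genes closest to the mean profile of the 4 marker genes over the 11 group means of this set were Hdac6 (Pearson r 0.937), Zfp280b (0.917), Abtb2 (0.916), Abhd14b, Slc16a9, Card19, Cep135, Gstm6, Arrb1 and P4htm (0.894), among 6973 genes. None of them belongs to the macrophage or leukocyte lists, of which only 16 and 10 genes are measured in this set. With so few listed genes, nothing is read from their absence. The 11 points share their normalization and their fibroblast source, and the values are a description.

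Uninfected MEF had higher levels than the pluripotent lines for 7 of the 9 marker genes measured in that set. The share of all genes that were highest in MEF was not computed, so nothing is read from this count. Among the 7, percentiles in MEF ran from 32.8 (Adgre1) to 69.6 (C1qa). C1qa read 591 and 714 in MEF, 417 and 323 in Dlx3RNAi, 296 and 295 in G6Gm, 123 and 122 in G3, and 72.0 and 108 in R1. Its 5 groups did not overlap. Csf1r had 313 and 296 in MEF and 195 and 176 in Dlx3RNAi, and between 76.8 and 105 in the other lines, which overlapped in part. Fcgr3 gave 318 and 286 in MEF, 176 and 166 in Dlx3RNAi, 124 and 142 in G6Gm, and 78.5 to 110.1 in G3 and R1. The order of the groups was the same as for C1qa, with G3 and R1 overlapping. Mpeg1 read 213 and 267 in MEF, 150.0 and 112 in Dlx3RNAi, 87.0 and 101 in G6Gm, and 34.6 to 49.7 in G3 and R1. Adgre1 had 165 and 154 in MEF, 128.1 and 81.5 in Dlx3RNAi, 84.5 and 107 in G6Gm, and 47.0 to 62.1 in the others. For both of these genes MEF lay above every line, with Dlx3RNAi and G6Gm next.

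Mrc1 read 214 and 200.1 in MEF and 150.2 and 157 in G3, with the remaining lines at 94.0 to 123. Coro1a had 422 and 389.9 in MEF, 329.7 and 299 in G3, and 176 to 259 in the other lines. G3 was therefore the line nearest to MEF for both genes, which differs from the order of C1qa. Cd68 went another way, with 679 and 622 in MEF, 421 and 442 in G6Gm, 754 and 731 in Dlx3RNAi, 954 and 901 in G3, and 1292 and 1397 in R1. All groups were apart, and R1 was the highest. Clec10a was dim in all, from 20.3 and 46.7 in MEF to 119 and 75.3 in R1.

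**Figure D4:**
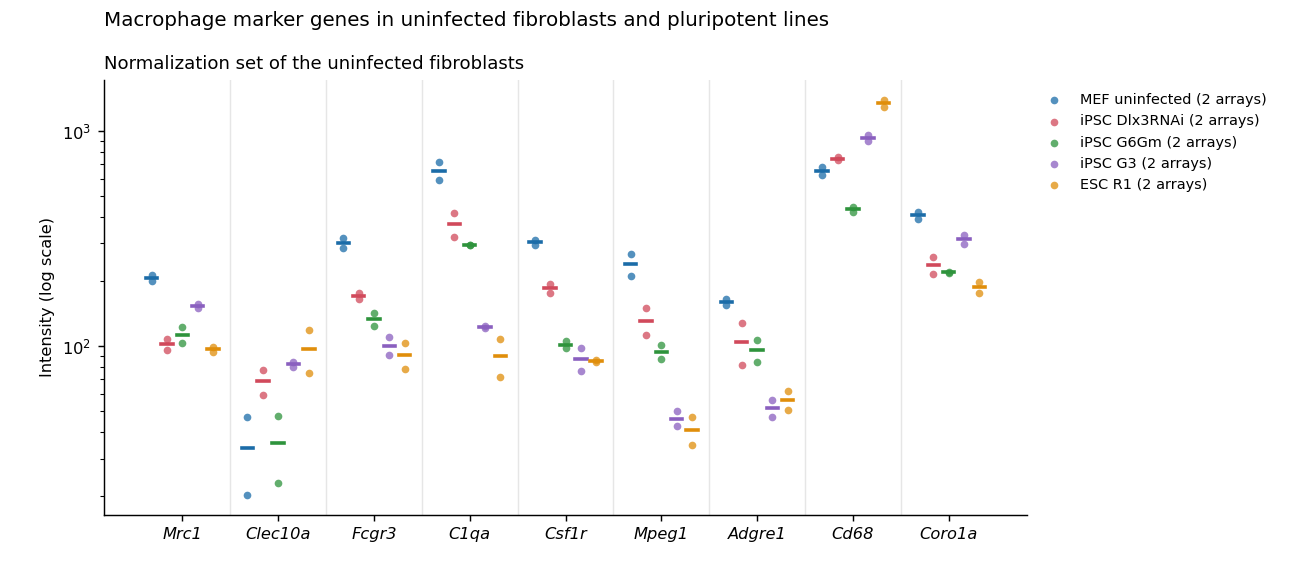
Intensity (log scale) of the 9 macrophage marker genes measured in uninfected MEF, 3 iPSC lines and ESC R1, with single arrays as points and group means as bars. MEF is highest for 7 genes, while Cd68 (1292 and 1397) and Clec10a are highest in R1. The share over all genes was not computed for this order.

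For the mean of the 4 lines minus MEF, 6 of 9 marker genes passed, all lower. Of all genes 57.8 percent passed, 28.7 percent higher and 29.1 percent lower. The median difference was -0.86, from -1.62 (SE 0.44) for C1qa to 0.63 (SE 0.47) for Clec10a. Mrc1, at -0.70 (SE 0.37), Cd68, at 0.28 (SE 0.58), and Clec10a did not pass. Of 27 other macrophage genes 10 fell and 4 rose, with Cd14, a co-receptor for lipopolysaccharide, at -3.14, C1qb at -1.92, Pld4 at -1.31 and C1qc at -1.27. The 4 that rose were Slc11a1, Siglec1, Csf2rb and Clec4d, by 0.66 to 0.90. Their summed intensity was 6633 to 6682 in MEF and 3682 to 5010 in the lines. Fibroblast genes fell for 10 of 12, and pluripotency genes rose for 5 of 5 (Sox2, Zfp42, Utf1, Pou5f1 and Klf2). Dlx3RNAi had the highest summed intensity of 12 fibroblast genes among the lines, 73659 to 80834 against 73110 to 81090 in MEF, and G3 the lowest, 24107 to 24161. Whether the feeder layer adds to the lines' marker levels was not tested.

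In ESC B6, which has no comparison group in its set, Adgre1 read 42.3, 19.5 and 35.2, C1qa 36.8, 42.3 and 25.2, and Csf1r 31.4, 34.1 and 29.5. These 3 genes lay at or below percentile 2.98 of the probes. Fcgr3 had 144, 134 and 139.5, and Mrc1 257, 263 and 268. Cd68 read 644, 778 and 685 and Coro1a 656, 672 and 642, near the middle of their arrays' probes.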

How the data were processed

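The deposited values are linear intensity values, 1 per probe and array of a single-colour (Cy5) platform; which software made them, and how background and scale were treated, is not given in the sources used here. Arrays were assigned to 5 sets by the probes they lack, taken as separate normalizations, with array medians from 295.9 to 434. Of 19426 probes, 15539 carry 1 symbol. The other 3887, with no symbol or more than 1 in the table used, were left out. The probe with the highest mean log2 value stands for a gene. The number of arrays limits the precision.

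limma 3.58.1 in R 4.3.3 fitted group means of log2(intensity + 32) over all 49 arrays with an intensity trend, and p-values were Benjamini-Hochberg adjusted over all genes of a comparison at 0.05, two-sided. The pseudocount understates differences of dim genes. The fit was checked on simulated data. The members, the lists and their comparisons were chosen with earlier results of these data known. Named were all 10 marker genes, up to 4 passing genes per list and comparison by size of difference, and the 10 genes closest in profile; genes in counts of 5 or fewer that fall outside this were named after their values were seen. Other macrophage, leukocyte, growth and fate factor, attractant, lysosome, osteoclast, neutrophil, mast, dendritic, T and B cell, endothelial, erythroid, fibroblast, keratinocyte and pluripotency lists were used. Replicate numbers were not used to pair the arrays in the main fit.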

Additional observations from a re-analysis of the deposited data

How the results depend on the processing

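The marker genes' median difference kept its direction in every setting for OKM+EV, SOX1, SOX3, GMNN, GATA4, GATA6 and the pluripotent lines. With a pseudocount 4 times larger than the 32 used it was -4.81 for OKM+EV minus MEF2 EV, 0.43 for GATA6, 0.74 for GATA4, 2.11 for SOX1, 1.69 for SOX3, 2.89 for GMNN and -0.55 for the pluripotent lines, and with a pseudocount of 8 it was 3.82 for GMNN and -1.05 for the lines. A filter on dim genes gave -0.71 for the lines and left no marker gene, and so no value, in the SKM set. Leaving out each array gave -5.59 to -4.90 for OKM+EV minus MEF2 EV, -0.41 to -0.18 for SKM+EV minus MEF1 EV and -0.92 to -0.79 for the lines. For OCT4 it gave -0.38 to -0.19, GATA6 0.52 to 0.78, SOX7 -0.12 to 0.04, PAX1 0.13 to 0.32, GATA4 1.01 to 1.09, CEBPa 0.01 to 0.18, HNF4a -0.02 to 0.11, GRB2 -0.01 to 0.24 and MIXL1 -0.13 to 0.08.

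Counts of passing genes moved more. A fit of each set alone, with fewer arrays, passed 634 for OKM+EV (4876 in the fit over all arrays), 22 for SOX1 (640), 27 for SOX3 (707) and 224 for GMNN (808), and more in the SKM set, with 3409 for SKM+EV minus MEF1 EV (1961), 2303 for OCT4 (1103), 3512 for GATA6 (2202), 2482 for SOX7 (1210), 3275 for PAX1 (1574) and 677 for MIXL1 (208). The filter on dim genes tests fewer genes and passed 783 for SOX7, 909 for PAX1, 2978 for GATA4 (5391), 2140 for CEBPa (3459), 2438 for HNF4a (4248) and 2205 for GRB2 (4033). For the other macrophage genes, an alternative chosen after seeing the data, it passed 2 for SOX1, 3 for SOX3 and 5 for GMNN, and the fit of the set alone passed 3 for SOX1. Leaving out each array passed 1121 to 1662 for SKM+EV minus MEF1 EV, 3457 to 6759 for OKM+EV minus MEF2 EV, 621 to 768 for OCT4, 1254 to 2005 for GATA6, 543 to 1069 for SOX7, 704 to 1187 for PAX1, 3558 to 5052 for GATA4, 1985 to 2956 for CEBPa, 2663 to 3694 for HNF4a, 2395 to 3428 for GRB2, 75 to 142 for MIXL1, 94 to 1207 for SOX1, 113 to 1447 for SOX3, 326 to 1290 for GMNN and 5073 to 6822 (6931) for the lines. The 94, 113 and 1207, 1447, 1290 are those without the first and the second OKM+SOX2 array. For other macrophage genes the ranges were 21 to 22 (OKM+EV), 2 to 4 (SOX1), 1 to 4 (SOX3) and 5 to 6 (GMNN).

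Replicate numbers were checked for pairing. Deviations of same-numbered arrays correlated at 0.173 between MEF2 EV and OKM+EV and at -0.127 to 0.077 in the set of OKM+SOX2. In the SKM set they correlated at -0.504 to 0.516 (median 0.008), with 18 of 55 group pairs over 0.1. Among MEF and the lines the range was -0.241 to 0.238. The main fit treats the arrays as unpaired. Whether some same-numbered arrays share a batch or culture is not given. With the replicate block, 2944 genes passed for SKM+EV minus MEF1 EV, 1867 for OCT4, 2137 for SOX7, 2813 for PAX1, 484 for MIXL1, 1581 for SOX1, 2005 for SOX3 and 1574 for GMNN, and 9 other macrophage genes for SOX3. The block moved the 10 remaining counts by less than 1.5 times. The cause of these shifts was not tested.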

Other observations

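In the mean of the 4 pluripotent lines minus uninfected MEF, 6 of 14 pan-leukocyte genes rose and 4 (Lsp1, Arhgdib, Vav1 and Rac2) fell in limma. Of all genes, 28.7 percent rose and 29.1 percent fell in this comparison, so nothing is read from these counts. Inpp5d, a lipid phosphatase, rose by 3.34 (from a mean of 67.7 to 1067), Laptm5 by 2.69 and Ptpn6 by 1.66, while Lsp1 fell by 2.42. In the same comparison the marker genes Csf1r and C1qa differed by -1.25 and -1.62, while Cd68 differed by 0.28 and Clec10a by 0.63, neither past the threshold.

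In the SKM set the monocyte attractants Ccl2 and Ccl7 were bright in SKM+EV, with means of 35321 and 11626. Ccl2 fell by 2.02 with GATA6 and fell by 2.14 with GATA4. Ccl7 fell by 1.75 with GATA6 and fell by 1.10 with GATA4. With GATA4, Laptm5 rose by 1.51 while Lsp1 fell by 2.27 and Lcp1 fell by 1.77.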
